A study of Mus musculus with 12 samples.

Results

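The numbered Gpr genes encode receptors that were named for their place in the G protein-coupled receptor superfamily before a ligand was known, and many of them are still called orphans. They were taken as all genes on the array whose symbol is Gpr followed by a number alone, which gave 56 of the 18193 genes measured through a probe set with a single gene symbol. These 56 genes had 85 probe sets, and each gene was read through the probe set with the largest standard deviation (SD) over the 12 arrays. Of the 56 genes, 37 were flat, with a range under 0.5 log2 over the 12 arrays, and 19 were not.

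The 4 progenitor populations of C57BL/6 female mice aged 4 to 6 weeks were sorted from bone marrow as lineage-negative, CD117+ and Sca-1- cells, and RNA of each was hybridised to 3 arrays. Common myeloid progenitors (CMP) were sorted as CD34+ and negative for CD16 and CD32, and split into CD27+ CMP and CD27- CMP. Granulocyte-monocyte progenitors (GMP) were CD34+, CD27+ and positive for CD16 and CD32, and megakaryocyte-erythrocyte progenitors (MEP) were CD34-, CD27- and negative for CD16 and CD32. CD27 therefore divides the 4 groups into CD27+ CMP and GMP on the positive side and CD27- CMP and MEP on the negative side. Biological replicates is the labels' term for the 3 arrays of a group, without saying if animals were pooled, so the p-values measure only the spread between these arrays. The deposited log2 values are centred on the median array of each probe set. A value of 0 is the median of the 12 arrays and gives no level, and levels are not compared between genes. A difference between bulk populations cannot tell fewer cells carrying an RNA from less RNA per cell.

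A receptor of this superfamily crosses the membrane with a bundle of helices and, once activated, acts on a heterotrimeric G protein made of an alpha, a beta and a gamma subunit. The alpha subunit then raises or lowers cyclic AMP or opens calcium signalling, receptor kinases and arrestins switch the receptor off, and RGS proteins shorten the G protein signal. Among blood cells such receptors are best known for guiding migration and for sensing lipids, acid and metabolites. Several proteins that carry a Gpr number sit in the Golgi apparatus or the lysosome and are not classical receptors of the cell surface.

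The sorted groups carried the lineage genes of their names. Of the erythroid and megakaryocyte genes, Klf1, Epor, Gata1 and Gp5 had group means of -4.73 to -3.29 in GMP, against 1.83 to 3.34 in MEP, while Itga2b read -0.18 in GMP and -0.53 in MEP. The 5 granulocyte and monocyte genes Mpo, Elane, Csf1r, Cebpa and Irf8 had means of 2.33 to 4.99 in GMP and -4.93 to -2.29 in MEP. Apart from Itga2b, CD27+ CMP had the sign of GMP for these genes and CD27- CMP that of MEP. Cd34 RNA averaged -3.22 in CD27- CMP, although both CMP fractions were sorted with CD34 protein. RNA of the sort genes Fcgr3 (CD16) and Fcgr2b (CD32) averaged 2.20 and 3.38 in CD27+ CMP and -2.51 and -3.30 in CD27- CMP. Both CMP fractions were sorted negative for CD16 and CD32 protein. In GMP these genes averaged 7.16 and 4.78, and in MEP -1.64 and -3.79.

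Most numbered Gpr genes gave no variation to describe. The flat share was 66.1% of the 56 genes, against 41.1% of all genes, and their median range was 0.207 log2, against 0.855 log2 over all genes. A flat probe set may stand for a gene that is absent or for one that is even in all groups, and nothing follows about its level. Closest to the limit on the varying side were Gpr25, with a range of 0.501, and Gpr174, with 0.582, and on the flat side Gpr135, with 0.370, and Gpr85, with 0.367. The range fell off steeply from 8.58 for Gpr171, 8.41 for Gpr160 and 6.49 for Gpr65 to 4.12 for Gpr155, 3.43 for Gpr183 and 2.79 for Gpr18.

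**Figure D1:**
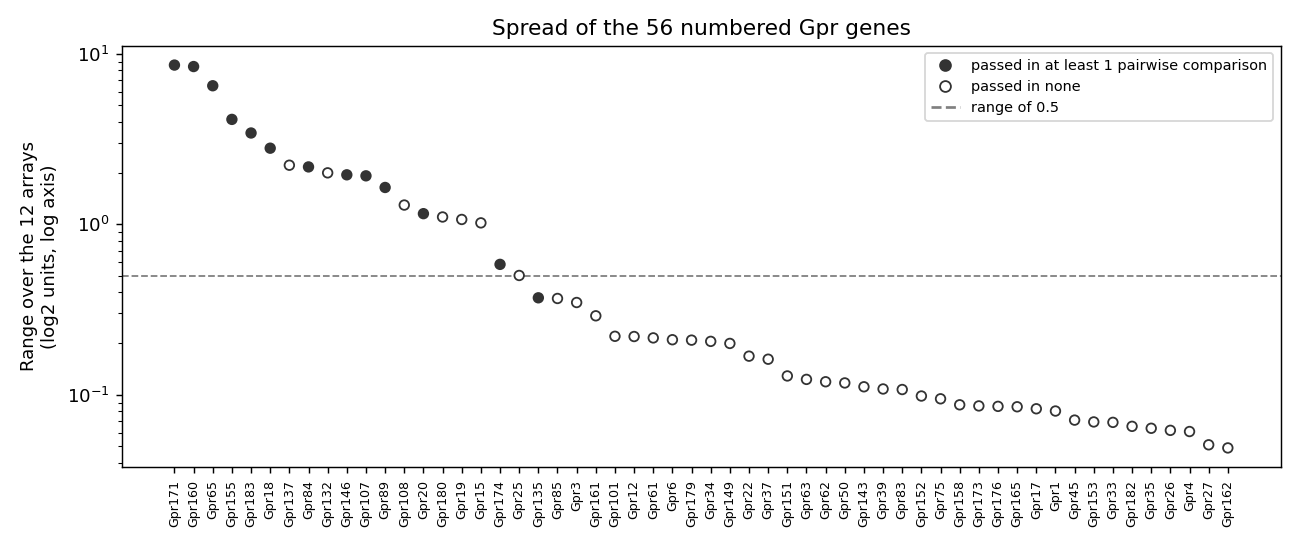
Range over the 12 arrays of each of the 56 numbered Gpr genes, in log2 units on a log axis, ordered from the widest to the narrowest. Filled points passed the test in at least 1 pairwise comparison, the dashed line is the range of 0.5, and 19 genes lie above it.

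Differences between groups were tested with limma over all genes, and a gene passed at a Benjamini-Hochberg adjusted p under 0.05. In the F test for any difference among the 4 groups 10 of 56 members passed, or 17.9%, against a background of 26.8% of all genes. In CD27+ against CD27- CMP, which asks how the CMP gate divides by this antigen, 10 members passed, 6 of them higher and 4 lower in CD27+ CMP. That is 17.9% of the members, against 22.4% of all genes, of which 12.1% were higher and 10.3% lower. In GMP against MEP, the committed populations, 6 passed, with 4 higher and 2 lower in GMP, or 10.7% against 22.9% of all genes (11.5% higher, 11.3% lower). In CD27+ CMP against MEP 8 passed (5 higher, 3 lower), or 14.3% against 24.8% of all genes (11.9% higher, 12.9% lower). In CD27- CMP against GMP 8 passed (3 higher, 5 lower), or 14.3% against 22.3% of all genes (10.2% higher, 12.1% lower). CD27+ CMP against GMP gave 5 (3 higher, 2 lower), or 8.93% against 5.24% of all genes (2.59% higher, 2.65% lower). CD27- CMP against MEP gave 0 in limma, where 0.0330% of all genes passed (0.0165% in each direction), and 1 member, Gpr20, had an unadjusted p under 0.05. In all, 13 members passed in at least 1 pairwise comparison, or 23.2%, against 32.2% of all genes.

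The comparison of the CMP fractions and that of GMP with MEP share no array. Of the 10 members that passed in the first and the 6 that passed in the second, 4 passed in both with the same direction, which is 40% of the first list and 66.7% of the second. They were Gpr171, Gpr160 and Gpr65, higher in CD27+ CMP and in GMP, and Gpr155, lower in both. The overlap over all genes was not counted, so these shares cannot be read as particular to the Gpr genes. Over all genes the groups of a CD27 side differed little, with 5.24% passing in CD27+ CMP against GMP and 0.0330% in CD27- CMP against MEP. The median log2 difference of the 56 members was -0.02 between the CMP fractions and -0.03 between GMP and MEP, beside medians of -0.03 and -0.04 over all genes.

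**Figure D2:**
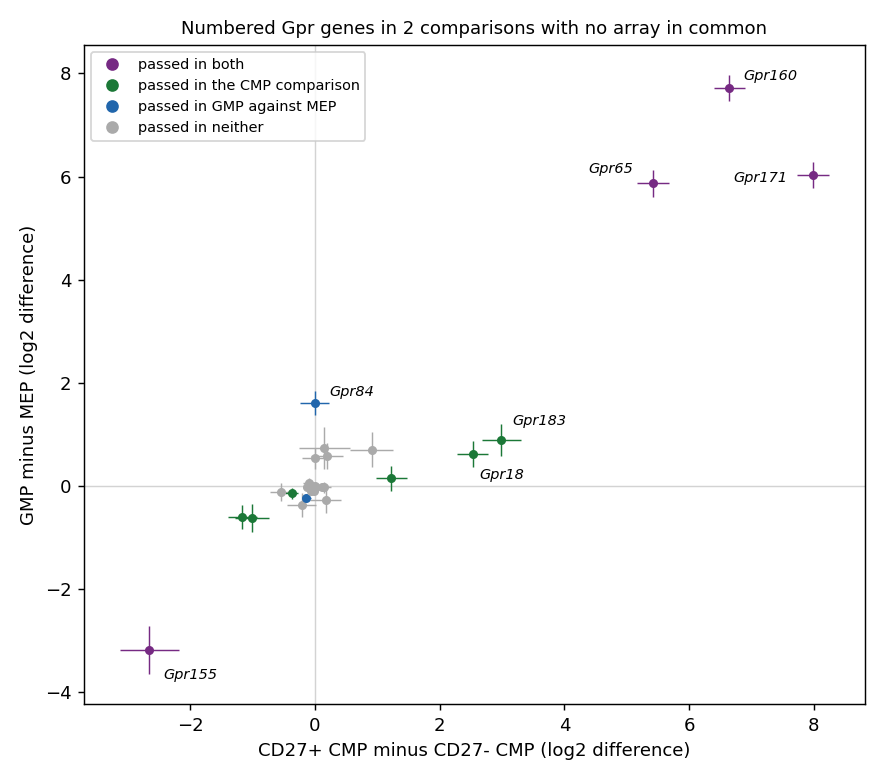
Log2 difference of CD27+ CMP minus CD27- CMP (x axis) and of GMP minus MEP (y axis) for the 56 numbered Gpr genes, with standard errors as bars and the tests passed as colours. Gpr171, Gpr160 and Gpr65 stand far to the upper right, Gpr155 to the lower left, Gpr84 moved along the y axis alone, and Gpr183 and Gpr18 mainly along the x axis.

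**Figure D3:**
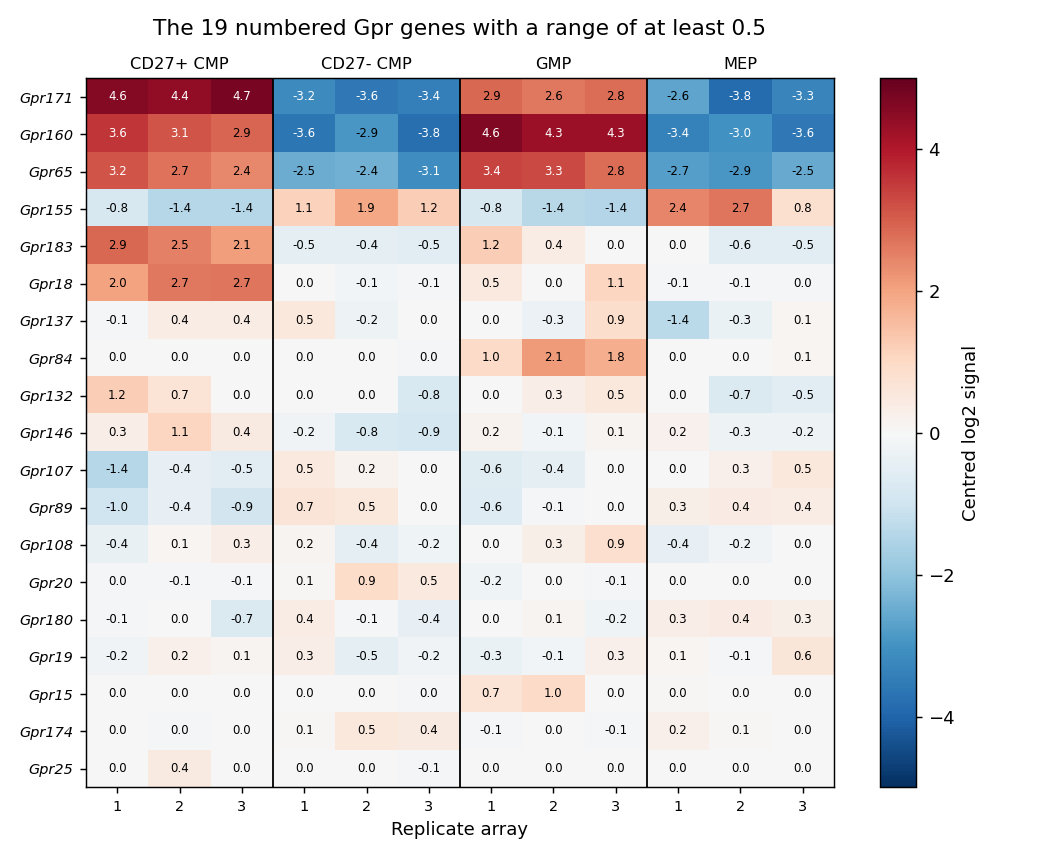
Centred log2 signal of the 19 numbered Gpr genes with a range of at least 0.5, 1 row per gene and 1 column per array, in the order CD27+ CMP, CD27- CMP, GMP and MEP. The top rows divide the arrays by CD27 side, and most lower rows hold values within 1 log2 of 0.

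The widest difference among the peptide, metabolite and ion receptors, and among all members, was that of Gpr171, a receptor for the neuropeptide BigLEN in mouse brain whose sequence resembles the P2Y nucleotide receptors. Gpr171 read 4.60, 4.44 and 4.74 in the CD27+ CMP arrays, -3.20, -3.57 and -3.42 in CD27- CMP, 2.87, 2.64 and 2.80 in GMP and -2.64, -3.84 and -3.32 in MEP. The CD27+ CMP arrays lay above all other arrays, the GMP arrays came next, and CD27- CMP and MEP overlapped. The log2 difference was 7.99 between the CMP fractions (SE 0.25, adjusted p = 4.5e-08, limma) and 6.04 between GMP and MEP (SE 0.25, adjusted p = 1.9e-07). CD27+ CMP also exceeded GMP, by 1.82 (SE 0.25, adjusted p = 0.0031). Between CD27- CMP and MEP the log2 difference was -0.13 (SE 0.25, adjusted p = 0.89).

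Of the other 8 receptors in that role, 6 were flat, among them Gpr35, Gpr37, the zinc-sensing Gpr39 and Gpr83, and Gpr15 and Gpr25 varied without passing. Gpr15, known for homing of T cells to the large intestine, read 0.69, 0.97 and -0.02 in GMP, and every array of the other groups lay between -0.05 and 0.04. Its GMP minus MEP difference of 0.53 had an adjusted p of 0.094 (SE 0.20), with replicate 3 of GMP at the level of the other groups. Gpr25 stood out on CD27+ CMP replicate 2 alone, at 0.45.

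Among orphan receptors Gpr160 had the widest difference. It read 3.57, 3.13 and 2.92 in CD27+ CMP, -3.62, -2.92 and -3.78 in CD27- CMP, 4.64, 4.26 and 4.28 in GMP and -3.36, -3.04 and -3.59 in MEP. The CD27+ and CD27- sides did not overlap, and each GMP array exceeded the highest CD27+ CMP array. Its differences were 7.72 for GMP minus MEP (SE 0.25, adjusted p = 4.3e-08) and 6.65 for CD27+ CMP minus CD27- CMP (SE 0.25, adjusted p = 1.3e-07). Gpr171 and Gpr160 thus stood in opposite order in the CD27+ groups, since Gpr160 was lower in CD27+ CMP than in GMP by a log2 difference of -1.19 (SE 0.25, adjusted p = 0.028). That call was lost under quantile normalization (-0.84, adjusted p = 0.25), at adjusted p from 0.054 to 0.10 without GMP replicate 1, 2 or 3 or CD27+ CMP replicate 2 or 3, and at adjusted p = 0.066 with only the 2 groups in the fit.

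Gpr146, an orphan receptor linked to cholesterol metabolism in mouse liver, differed between the CMP fractions. It read 0.35, 1.08 and 0.45 in CD27+ CMP, -0.18, -0.76 and -0.87 in CD27- CMP, 0.16, -0.14 and 0.14 in GMP and 0.22, -0.26 and -0.24 in MEP. The CD27+ CMP arrays lay above every other array, GMP and MEP overlapped, and CD27- CMP replicate 1 reached into the range of MEP. The difference between CD27+ and CD27- CMP was 1.23 (SE 0.24, adjusted p = 0.0051). A further Gpr146 probe set read 1.16, and the other 2 were flat at -0.03 and -0.01. That further probe set also put CD27+ CMP above MEP by 0.85 and above GMP by 0.69. Its limma p-values adjusted over all probe sets were 0.0038 and 0.048. The probe set kept for Gpr146 gave 0.72 and 0.57 there, with 0.085 and 0.45 on the same adjustment.

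Gpr20, an orphan receptor that couples to inhibitory G proteins, read 0.06, 0.93 and 0.48 in CD27- CMP, and the other 9 arrays ran from -0.22 to 0.03. In the reported fit only CD27- CMP against GMP passed, at 0.59 (SE 0.18, adjusted p = 0.040), and the call rested on single arrays. It was 0.36 without CD27- CMP replicate 2 (adjusted p = 0.054), and adjusted p was 0.072 without CD27- CMP replicate 3 and 0.13, 0.072 and 0.078 without GMP replicate 1, 2 and 3. It was also lost under quantile normalization (0.11), with p-values adjusted over all probe sets (0.058) and with only the 2 groups in the fit (0.19). With a replicate block the Gpr20 difference of CD27+ minus CD27- CMP, at -0.54, passed narrowly (adjusted p = 0.0497, limma). Gpr135 passed in GMP against MEP although its probe set was flat, at -0.23 (SE 0.07, adjusted p = 0.042). Its GMP arrays read -0.11, 0.01 and -0.12 and its MEP arrays 0.25, 0.08 and 0.13. Differences of 0.03 and -0.05 came from the remaining Gpr135 probe sets. The call was lost without MEP replicate 1 (adjusted p = 0.14), MEP replicate 3 (0.081), GMP replicate 1 (0.13) or GMP replicate 3 (0.12), and in 5 further settings (adjusted p from 0.054 to 0.15), among them the replicate block (0.056). Gpr19 varied over 1.07 log2 with overlapping groups, and the other 18 of the 23 orphans were flat.

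Of the 3 proton-sensing receptors, Gpr65 divided the groups by CD27 side. Gpr65 raises cyclic AMP when the surroundings turn acid and is known from lymphoid and myeloid cells. It read 3.16, 2.72 and 2.41 in CD27+ CMP, -2.47, -2.41 and -3.12 in CD27- CMP, 3.37, 3.31 and 2.77 in GMP and -2.74, -2.90 and -2.51 in MEP. The groups of a side overlapped with each other, and the sides were separated by more than 4 log2 units. The log2 difference was 5.43 between the CMP fractions (SE 0.26, adjusted p = 5.0e-07) and 5.87 between GMP and MEP (SE 0.26, adjusted p = 2.5e-07). CD27+ CMP minus GMP was -0.39 (SE 0.26, adjusted p = 0.72).

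Gpr132, a relative of Gpr65 that is known from lymphocytes and macrophages, leaned toward the CD27+ groups by less and did not pass. Its arrays read 1.25, 0.67 and 0.00 in CD27+ CMP, -0.01, -0.04 and -0.75 in CD27- CMP, 0.01, 0.32 and 0.55 in GMP and 0.00, -0.70 and -0.52 in MEP. Arrays of every group came within 0.05 of 0. The difference of 0.91 between the CMP fractions had an adjusted p of 0.096 (SE 0.34), and the second Gpr132 probe set was flat. Gpr4, the other proton sensor, was flat, with a range of 0.061.

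Of the 5 receptors for lipids and oxysterols 1 was flat and 4 passed in at least 1 comparison, as did 32.2% of all genes, and 1 of these 4, Gpr174, lost its calls in 8 of 15 other settings. Gpr183 binds oxysterols and guides B cells, T cells and dendritic cells within lymphoid tissue. It read 2.87, 2.50 and 2.11 in CD27+ CMP, -0.51, -0.43 and -0.55 in CD27- CMP, 1.23, 0.37 and -0.01 in GMP and 0.01, -0.56 and -0.53 in MEP. CD27+ CMP lay above every other array, and GMP and MEP overlapped. CD27+ CMP exceeded CD27- CMP by 2.99 (SE 0.31, adjusted p = 8.5e-05), MEP by 2.85 (adjusted p = 0.00011) and GMP by 1.96 (adjusted p = 0.0060). GMP minus MEP was 0.89 (SE 0.31) and did not pass (adjusted p = 0.074), but passed with a replicate block (adjusted p = 0.019). The second Gpr183 probe set read 1.54 between the CMP fractions and 1.41 against GMP, where adjusted p over all probe sets was 0.051 and 0.20. CD27- CMP was lower than GMP by a difference of -1.03 (adjusted p = 0.042), a value that shrank to -0.68 without GMP replicate 1 (adjusted p = 0.11), to -0.58 with the mean of the probe sets (adjusted p = 0.21), and was also lost without GMP replicate 2 or any array of CD27- CMP (adjusted p from 0.074 to 0.10), with only the 2 groups in the fit (0.11) and with adjustment over all probe sets (0.061).

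Gpr18, a receptor known from lymphocytes with proposed lipid ligands, had a like profile. Its arrays read 2.03, 2.65 and 2.67 in CD27+ CMP, -0.02, -0.12 and -0.08 in CD27- CMP, 0.50, 0.02 and 1.06 in GMP and -0.11, -0.11 and -0.04 in MEP. The CD27+ CMP arrays again lay above all others, and the GMP arrays, above both CD27-negative groups, were spread over more than 1 log2. The difference between the CMP fractions was 2.53 (SE 0.25, adjusted p = 5.4e-05) and that between CD27+ CMP and GMP 1.92 (SE 0.25, adjusted p = 0.0019). GMP minus MEP was 0.62 and did not pass (SE 0.25, adjusted p = 0.11). With only CD27+ CMP and GMP in the fit, adjusted p became 0.064 for Gpr18 and 0.089 for Gpr183.

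Because Gpr183 and Gpr18 are known from lymphocytes, markers of mature lymphoid cells were read beside them. Cd79a and Ms4a1 of B cells and Cd3e, Cd3g and Ncr1 of T and NK cells, 5 of 5 measured, were flat, with ranges from 0.0793 to 0.358. Their group means in CD27+ CMP ran from -0.04 to -0.01.

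Gpr84, a receptor for medium-chain fatty acids known from myeloid cells, was the member that set GMP apart. It read 0.97, 2.13 and 1.84 in GMP, and the 9 arrays of the other groups ran from -0.04 to 0.11. The GMP arrays did not overlap with any other array. GMP exceeded MEP by 1.60 (SE 0.23, adjusted p = 0.00075), and the differences from GMP were -1.67 for CD27+ CMP (adjusted p = 0.0031) and -1.66 for CD27- CMP (adjusted p = 0.00061). With only CD27+ CMP and GMP in the fit adjusted p was 0.079. Of 3 markers of mature macrophages, Adgre1 averaged 0.08 in CD27+ CMP and 2.52 in GMP, Cd68 averaged 3.68 in CD27+ CMP and 3.16 in GMP, and C1qa was flat. Of 3 late neutrophil markers, Ltf and Camp were flat and Mmp9 read -0.01 in GMP and 0.25 in MEP. Their part in the Gpr84 difference was not tested.

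Gpr174, a lysophosphatidylserine receptor of lymphocytes, showed a small difference toward CD27- CMP. Its arrays read -0.02, -0.05 and -0.03 in CD27+ CMP, against 0.07, 0.52 and 0.43 in CD27- CMP, and GMP ran from -0.06 to -0.01 and MEP from 0.01 to 0.24. The log2 difference was -0.37 for CD27+ minus CD27- CMP (SE 0.11, adjusted p = 0.033) and 0.38 for CD27- CMP minus GMP (SE 0.11, adjusted p = 0.029). In the CMP comparison adjusted p rose to between 0.078 and 0.11 without CD27+ CMP replicate 1, 2 or 3 or CD27- CMP replicate 2 or 3. In the comparison with GMP it rose to between 0.063 and 0.098 without GMP replicate 1, 2 or 3 or CD27- CMP replicate 2 or 3. Both calls were also lost under quantile normalization (adjusted p = 0.081 and 0.071), with only the 2 groups in the fit (0.13 for each) and with a replicate block (0.062 and 0.057). With the mean of both probe sets the differences were -0.20 and 0.21 and passed (adjusted p = 0.028 and 0.027). The second Gpr174 probe set was flat. Gpr34, which binds the same lipid and is known from microglia, was flat, with a range of 0.206.

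**Figure D4:**
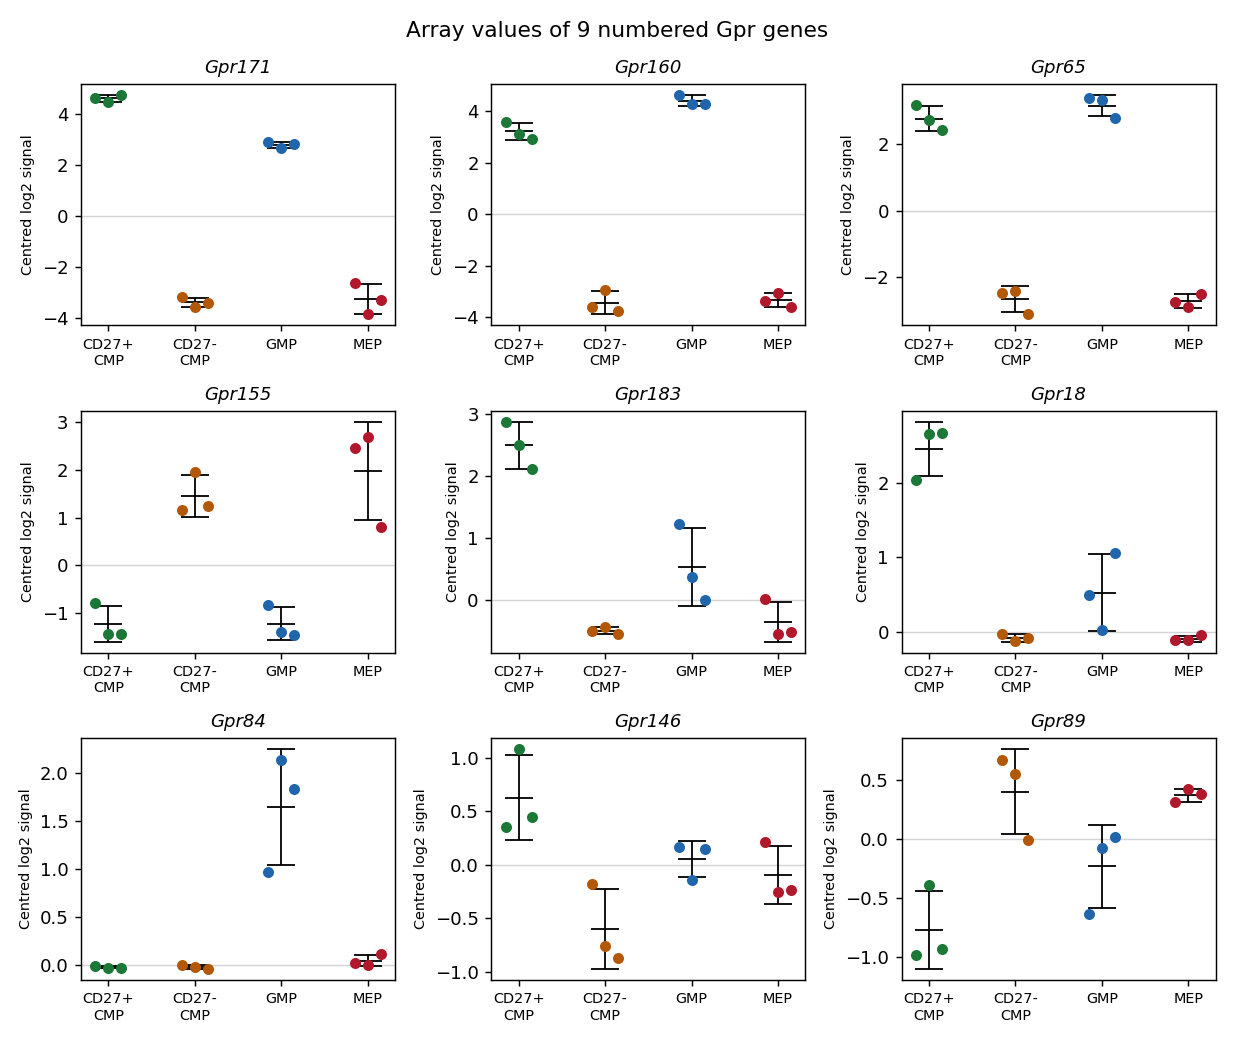
Centred log2 signal of 9 numbered Gpr genes in the 12 arrays, with the group mean and SD in black and a y axis of its own for each gene. Gpr171, Gpr160 and Gpr65 were high in CD27+ CMP and GMP, and Gpr155 was low in both of these groups. Gpr89 was low in CD27+ CMP, Gpr183 and Gpr18 were highest in CD27+ CMP and Gpr84 was highest in GMP.

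The 7 members that are not classical surface receptors held 3 of the 4 members lower in CD27+ than in CD27- CMP. Over all genes 10.3% were lower there. The roles were chosen with earlier results of these data known, so this count is not read as a trait of the role. Gpr155, a lysosomal membrane protein that senses cholesterol, read -0.79, -1.43 and -1.43 in CD27+ CMP, 1.15, 1.95 and 1.23 in CD27- CMP, -0.82, -1.38 and -1.45 in GMP and 2.44, 2.67 and 0.79 in MEP. The 2 CD27 sides did not overlap, and MEP replicate 3 was the lowest of the arrays on the negative side. The log2 difference was -2.66 between the CMP fractions (SE 0.47, adjusted p = 0.0027) and -3.18 between GMP and MEP (SE 0.47, adjusted p = 0.00083).

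Gpr89 encodes an anion channel that keeps the Golgi apparatus acid. It read -0.98, -0.39 and -0.93 in CD27+ CMP, 0.66, 0.55 and -0.01 in CD27- CMP, -0.63, -0.07 and 0.01 in GMP and 0.31, 0.42 and 0.38 in MEP. CD27+ CMP lay below both CD27-negative groups, by a log2 difference of -1.17 from CD27- CMP (SE 0.23, adjusted p = 0.0052) and of -1.14 from MEP (SE 0.23, adjusted p = 0.0054). GMP minus MEP, at -0.60, did not pass (adjusted p = 0.11).

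Gpr107, a Golgi and endosome protein, read -1.41, -0.40 and -0.52 in CD27+ CMP, 0.48, 0.18 and 0.03 in CD27- CMP, -0.59, -0.43 and -0.03 in GMP and 0.03, 0.27 and 0.51 in MEP. Its level fell short of that in CD27- CMP by a difference of -1.01 (SE 0.27, adjusted p = 0.025) and of that in MEP by -1.05 (SE 0.27, adjusted p = 0.020). The remaining 4 Gpr107 probe sets gave differences of -0.54, 0.05, -0.19 and -0.20 between the CMP fractions, and the mean of all 5 did not pass against MEP (-0.28, adjusted p = 0.098). The call between the CMP fractions was lost without CD27- CMP replicate 1 or 2 (adjusted p = 0.089 and 0.061) and that against MEP without MEP replicate 2 or 3 (adjusted p = 0.056 and 0.068). With only the 2 groups in the fit adjusted p was 0.10 between the CMP fractions and 0.073 against MEP, and with array weights it was 0.092 against MEP.

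Gpr137, a lysosomal protein, Gpr108 and Gpr180 varied over 2.22, 1.30 and 1.10 log2 without passing in any comparison of the reported fit. With a replicate block Gpr180 passed in CD27+ CMP against MEP, at -0.58 (adjusted p = 0.045, limma). The range of Gpr137 came largely from MEP replicate 1, at -1.35, and GMP replicate 3, at 0.87. For Gpr108, a Golgi protein, GMP replicate 3 was the highest array, at 0.86. Gpr143, a receptor of pigment cell melanosomes, was flat.

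Several roles with few members each, among them receptors known from the brain or from germ cells, were flat, as were 66.1% of the 56 members. They were the 3 receptors Gpr3, Gpr6 and Gpr12 that keep cyclic AMP high without a ligand, the 3 conserved brain receptors Gpr27, Gpr85 and Gpr173, the class C orphans Gpr158 and Gpr179, and Gpr161, which restrains hedgehog signalling in the primary cilium. Over the 37 flat members the group means ran from -0.08 to 0.15. Their median was -0.014 in CD27+ CMP, 0.0049 in CD27- CMP, -0.0037 in GMP and 0.029 in MEP, and the array medians over all probe sets ran from -0.03 to 0.05.

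Promoter sequences are shown so that their composition can be compared. They are those of Gpr160, Gpr65 and Gpr155, which moved with CD27 side, and of Gpr183 and Gpr18, which share a profile. Gpr171 also moved with CD27 side, but no promoter sequence was at hand for it. Each window runs from 250 bases before to 50 bases after the RefSeq start of the gene on GRCm38.p6, written 5′ to 3′ on the strand of the gene. Capitals mark matches, on either strand, to a core motif of blood transcription factors: GAGGAA of PU.1, AGATAA of GATA factors, TGTGGT of RUNX factors and TTGCNNAA of C/EBP factors.
Gpr160 (chr3:30855700-30855999, plus strand): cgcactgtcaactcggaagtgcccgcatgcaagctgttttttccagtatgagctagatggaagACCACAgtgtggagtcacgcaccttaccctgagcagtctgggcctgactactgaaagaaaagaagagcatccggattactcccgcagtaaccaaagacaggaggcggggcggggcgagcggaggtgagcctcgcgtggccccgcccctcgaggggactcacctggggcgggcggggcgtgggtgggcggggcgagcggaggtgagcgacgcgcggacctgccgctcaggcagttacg
Gpr65 (chr12:98268385-98268684, plus strand): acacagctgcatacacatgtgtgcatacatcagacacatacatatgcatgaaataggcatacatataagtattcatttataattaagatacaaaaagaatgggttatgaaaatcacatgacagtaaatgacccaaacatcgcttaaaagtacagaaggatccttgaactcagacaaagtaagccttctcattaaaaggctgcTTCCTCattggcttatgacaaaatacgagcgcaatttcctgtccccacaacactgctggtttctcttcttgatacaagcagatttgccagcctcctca
Gpr155 (chr2:73386431-73386730, minus strand): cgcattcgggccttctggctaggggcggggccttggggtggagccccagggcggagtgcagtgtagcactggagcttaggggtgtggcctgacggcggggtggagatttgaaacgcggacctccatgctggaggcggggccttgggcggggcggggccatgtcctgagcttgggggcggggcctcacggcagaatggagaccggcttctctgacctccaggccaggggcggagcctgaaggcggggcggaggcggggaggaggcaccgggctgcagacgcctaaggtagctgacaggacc
Gpr183 (chr14:121965144-121965443, minus strand): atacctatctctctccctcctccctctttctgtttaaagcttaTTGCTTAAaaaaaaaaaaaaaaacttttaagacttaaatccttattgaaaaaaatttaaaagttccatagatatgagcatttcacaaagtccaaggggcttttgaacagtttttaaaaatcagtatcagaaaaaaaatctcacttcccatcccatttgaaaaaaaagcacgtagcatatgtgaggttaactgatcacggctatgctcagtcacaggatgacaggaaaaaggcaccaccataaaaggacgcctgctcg
Gpr18 (chr14:121915839-121916138, minus strand): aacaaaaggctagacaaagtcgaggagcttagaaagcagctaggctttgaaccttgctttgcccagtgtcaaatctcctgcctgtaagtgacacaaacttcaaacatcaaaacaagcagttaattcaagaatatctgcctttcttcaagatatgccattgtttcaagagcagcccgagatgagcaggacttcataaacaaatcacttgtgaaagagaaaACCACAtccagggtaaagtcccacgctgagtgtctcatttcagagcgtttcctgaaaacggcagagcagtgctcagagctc

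The windows of Gpr160 and Gpr155 were rich in G and C, at 64.3% and 70.3%, while those of Gpr65, Gpr183 and Gpr18 held 38.3%, 35.3% and 44.0%. The Gpr65 window held 1 PU.1 core, those of Gpr160 and Gpr18 held 1 RUNX core each and that of Gpr183 held 1 C/EBP match, whereas the Gpr155 window held none of the 4 motifs. None of these 5 windows held the GATA core. Of all 32851 RefSeq windows, a share of 28.3% held the PU.1 core, 11.2% the GATA core, 16.8% the RUNX core and 10.8% the C/EBP motif, so that single matches of this kind are common. Of the 13 members that passed, 11 had a window, and Gpr171 and Gpr20 are named only.

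The 4 nearest protein-coding genes of each member that passed were read after the members' values were seen, and a gene beside 2 members counts with each. Between the CMP fractions Gpr183 and Gpr18 count as neighbours of each other, and Ubac2 counts with both. Both members were taken because they passed, so their entries as neighbours were fixed in advance. Beside the 10 members that passed between the CMP fractions, 10 of 35 measured neighbours passed in the member's direction, 4 passed in the other and 21 did not pass. Beside the 6 that passed between GMP and MEP, these counts were 6, 1 and 15 of 22. Over all genes 22.4% passed between the CMP fractions (12.1% higher, 10.3% lower) and 22.9% between GMP and MEP (11.5% higher, 11.3% lower). Whether neighbours passed more often than other genes was not tested. Gpr183 and Gpr18 are neighbours on chromosome 14, both within the span of Ubac2, which itself differed between the CMP fractions by 0.57 (SE 0.18, adjusted p = 0.047). Gpr171 lies on chromosome 3, where it overlaps Med12l and is next to P2ry14, the UDP-glucose receptor. Med12l differed by 2.23 between the CMP fractions (SE 0.46, adjusted p = 0.0064, limma) and by 0.37 between GMP and MEP (adjusted p = 0.55). P2ry14 averaged 3.70 in CD27+ CMP, -1.71 in CD27- CMP, 1.87 in GMP and -1.62 in MEP, the same order of groups for the CD27+ side as Gpr171. Its difference was 5.41 between the CMP fractions (SE 0.22, adjusted p = 2.1e-07), while P2ry13 of the same cluster differed by -0.02 (adjusted p = 0.73). Gpr155 lies on chromosome 2 next to Scrn3, with a difference of -4.24 between CD27+ and CD27- CMP (SE 0.38, adjusted p = 3.1e-05) and of -3.58 between GMP and MEP (SE 0.38, adjusted p = 8.7e-05). Wipf1, also near Gpr155, went the other way, at 2.07 between the CMP fractions (adjusted p = 0.00019) and 2.05 between GMP and MEP (adjusted p = 0.00019). Fnbp1 and Ncs1 near Gpr107 likewise differed by 1.77 (adjusted p = 0.00038) and 1.83 (adjusted p = 0.0048) between the CMP fractions, against -1.01 for Gpr107. Usp20, the other measured neighbour of Gpr107, had the direction of Gpr107, at -2.06 (SE 0.48, adjusted p = 0.012, limma).

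The machinery that carries the signal of these receptors was read from 6 lists with 69 measured genes, of which 29 were flat. In CD27+ against CD27- CMP 15 were higher and 8 lower, or 33.3% against 22.4% of all genes. In GMP against MEP 13 were higher and 7 lower, or 29.0% against 22.9% of all genes. CD27+ CMP against GMP gave 4 higher and 0 lower by limma, or 5.80% against 5.24% of all genes, where 2 of the genes lower in CD27+ CMP had an unadjusted p under 0.05. CD27- CMP against MEP gave 0 by limma, where 7 of 69 had an unadjusted p under 0.05 and the smallest adjusted p was 0.58. The count of 4 became 2 without GMP replicate 1 or without GMP replicate 2. The median log2 difference of the 69 genes was -0.01 between the CMP fractions and -0.03 between GMP and MEP, against -0.03 and -0.04 over all genes.

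Of 15 G alpha genes, 3 were higher and 2 lower in CD27+ than in CD27- CMP, where 12.1% of all genes were higher and 10.3% lower. Whether the G alpha counts differ from these shares was not tested. Gnaq, which activates phospholipase C, was higher in CD27+ CMP by 1.88 (SE 0.30, adjusted p = 0.0013). Its relatives Gna14 and Gna15 were lower, Gna14 by a difference of -3.95 (SE 0.33, adjusted p = 1.9e-05) and Gna15 by -1.24 (SE 0.24, adjusted p = 0.0050). In GMP against MEP Gna14 stood at -5.52 and Gnaq at 2.43. Among 5 G beta genes Gnb4 followed Gna14, at -2.69 between the CMP fractions and -4.50 between GMP and MEP, and Gnb1 was higher in CD27+ CMP by 0.75 (adjusted p = 0.0066). Of 11 G gamma genes 3 were higher (27.3%) in CD27+ CMP and 0 lower, against the same 12.1% and 10.3% of all genes. This list is too short for a count of 0 to show a one-sided shift. The higher genes were led by Gng2 at 5.20 (SE 0.50, adjusted p = 5.0e-05) and Gng12 at 2.74 (SE 0.25, adjusted p = 3.5e-05). Gng11 passed in GMP against MEP at 1.53 (adjusted p = 0.0082).

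RGS genes were higher in CD27+ CMP for 6 of 19 (31.6%) and lower for 3 (15.8%), against 12.1% and 10.3% of all genes. Rgs2, which acts on Gq, had the largest difference of the signalling partners between the CMP fractions, at 6.46 (SE 0.38, adjusted p = 2.0e-06), and Rgs19, which acts on Gi, stood at 2.68. Rgs1, known for restraining chemokine receptors in lymphocytes, averaged 1.66 ± 0.58 in CD27+ CMP, 0.05 ± 0.09 in CD27- CMP, -0.19 ± 0.20 in GMP and -0.15 ± 0.18 in MEP (SD, n = 3). Like Gpr183 and Gpr18 it exceeded GMP in CD27+ CMP, by 1.85 (SE 0.25, adjusted p = 0.0026). Of 9 receptor kinase and arrestin genes the arrestins went opposite ways, with Arrb2 higher in CD27+ CMP by 1.04 (adjusted p = 0.017) and Arrb1 lower by -1.24 (adjusted p = 0.0060), and Grk3 passed in GMP against MEP at 1.44 (adjusted p = 0.028). Of 10 adenylyl cyclase genes Adcy3 was higher, at 1.75 (adjusted p = 0.0036), and Adcy6 lower, at -3.42 (adjusted p = 2.7e-05), in CD27+ than in CD27- CMP. Adcy6, Gnb4 and Gna14 were lower still in GMP, and CD27+ CMP exceeded GMP by 1.49 for Adcy6 (adjusted p = 0.020), 2.00 for Gnb4 (adjusted p = 0.0027) and 1.72 for Gna14 (adjusted p = 0.016).

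**Figure D5:**
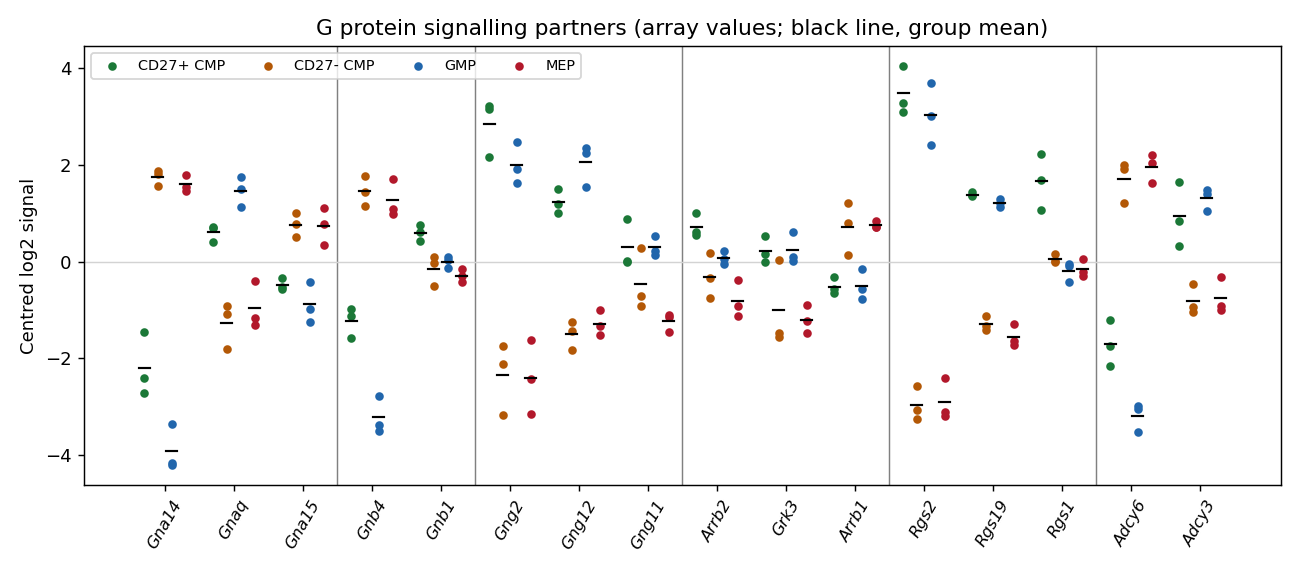
Centred log2 signal of 16 signalling partner genes in the 12 arrays, by list from left to right (G alpha, G beta, G gamma, receptor kinases and arrestins, RGS proteins, adenylyl cyclases), with points for arrays and black lines for group means. CD27- CMP and MEP lie close together for most genes, and Gna14, Gnb4 and Adcy6 are lowest in GMP.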

How the data were processed

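RNA from 80000 cells of each sorted population was hybridised, per the labels, to Affymetrix Mouse Genome arrays, 3 per group and 12 in all. The deposited table holds log2 values of 45037 probe sets. GCRMA is the tool named in the submitters' processing notes, and no version is named. The base of the logarithm is not stated and was taken as 2. The median of each probe set's 12 values lies within 5e-07 of 0, so the values are centred and filters on absolute signal were not possible. GCRMA draws weak signals toward background, so folds with a group near background are uncertain in size.

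Of the probe sets 34945 had 1 gene symbol, 932 several and 9160 none. All 56 members matched a RefSeq table of GRCm38.p6 by gene number, with the same symbol. All arrays entered a single limma 3.58.1 fit (R 4.3.3) on all probe sets, with 1 mean per group and pairwise contrasts. Tests were two-sided, and p-values were adjusted over the 18193 genes, each read through its most variable probe set. The array number limits precision: over all genes, 0.144 log2 was the median SE. Array values are given for members that passed and were among the 15 with the largest range, and for others singled out after their values were seen. Members, roles and partner lists were chosen with earlier results of these data known. Same-numbered arrays deviated together (r over 0.1 in 3 of 3 pairs) between GMP and MEP and between CD27+ CMP and GMP, and not in every pair of the other comparisons; this comes from the data, since the labels state no shared animal or day. Alternatives covered probe set choice, adjustment, filter, normalization, weights, robust moderation, replicate block, the groups in the fit and leaving out each array.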

Additional observations from a re-analysis of the deposited data

How the results depend on the processing

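Of 37 differences of single members that passed, 26 kept their call and direction in every setting run, and none changed direction. Of 554 values under other settings 495 kept the call and 59 lost it. The member counts without each array in turn ran from 8 to 13 in the CMP fractions, 5 to 7 for GMP and MEP, 4 to 5 in CD27+ CMP with GMP, 7 to 12 in CD27+ CMP with MEP and 5 to 8 in CD27- CMP with GMP, where 5 were left without GMP replicate 1 or without CD27- CMP replicate 2. They were 0 throughout in CD27- CMP with MEP, in these settings and the others run. The F test gave 8 to 12 members without single arrays, and flat members numbered 37 to 38.

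With array weights the members called numbered 35 in the CMP fractions, 15 for GMP and MEP, 9 in CD27+ CMP with GMP, 38 in CD27- CMP with GMP and 40 in the F test. The weights stopped short of their convergence tolerance and ran from 1.6e-07 for MEP replicate 2 to 52.2 for GMP replicate 1, so that fit rests on few arrays. The share of all genes called with these weights was not counted, so the weighted counts are not read as a result about the members. With only the 2 groups in the fit 1 member passed in CD27+ CMP with GMP and 5 in CD27- CMP with GMP.

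For the signalling partners, settings added after the data were seen, the count with array weights was 40 in the CMP fractions, 18 in CD27+ CMP with GMP and 49 in CD27- CMP with GMP. These weighted counts likewise have no share of all genes beside them and are not read as a result about the partners. CD27+ CMP with GMP gave 2 under quantile normalization and 1 with only its 2 groups. Without single arrays the partner counts ran from 18 to 26 in the CMP fractions, 17 to 23 for GMP and MEP, 2 to 6 in CD27+ CMP with GMP, 23 to 27 in CD27+ CMP with MEP and 17 to 20 in CD27- CMP with GMP.

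Correlations of same-numbered arrays ran from 0.275 to 0.597 between GMP and MEP, 0.172 to 0.552 between CD27+ CMP and GMP, 0.0586 to 0.399 between CD27+ CMP and MEP and -0.302 to 0.192 in the 3 comparisons with CD27- CMP, and 9 of 12 arrays correlated best with their own number. With the replicate block 10 members passed in the CMP fractions, 6 for GMP and MEP, 5 in CD27+ CMP with GMP, 10 in CD27+ CMP with MEP, 7 in CD27- CMP with GMP and 9 in the F test. Between GMP and MEP the block lost Gpr135 and gained Gpr183, and between CD27+ CMP and GMP it changed no member's call. Between the CMP fractions it lost Gpr174 and gained Gpr20, and in CD27- CMP with GMP it lost Gpr174. In CD27+ CMP with MEP it gained Gpr180 and the flat Gpr151 (adjusted p = 0.045 and 0.044, limma).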
